A study of Mus musculus with 20 samples.

Results

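The genes described here are 8 genes of major histocompatibility complex (MHC) class II antigen presentation, chosen by name from the 24411 genes of the deposited table of read counts and followed across the 4 groups of mice and against kidney to body weight (KBW, the kidney weight in the labels as a percentage of body weight). They are H2-Aa, H2-Ab1 and H2-Eb1, which encode chains of the class II molecule, H2-DMa and H2-DMb1, which encode the chaperone that loads it with peptide, Cd74, which encodes the invariant chain, Ctss, which encodes the protease cathepsin S, and Ciita, which encodes the transactivator of class II genes. The study deleted Pkd2 in adult kidney tubules to model autosomal dominant polycystic kidney disease. RNA was sequenced from whole kidneys of 5 mutants and 5 controls of each sex, all of the C57BL/6 strain and all Pkd2fl/fl. Mutants carried Pax8rtTA and TetOCre, and controls were littermates that lacked one of these transgenes. Every mouse received doxycycline at 50 mg/kg on each day from postnatal day (P) 27 to P29, and the kidneys were taken at P125. The Pax8 promoter directs the transactivator to tubular epithelium, and recombination in single cell types was not measured here. The labels put the mice in 3 litters, called A, B and C, each with mice of both sexes, and the labels gave no replicate numbers, so mice are numbered within a group in the order of deposition.

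Class II molecules carry peptides from taken-up proteins to the cell surface, where CD4 T cells read them. The invariant chain holds the groove of a new class II molecule until cathepsin S trims it away in endosomes, and H2-DM then exchanges the remaining fragment for a peptide. Dendritic cells, macrophages and B cells can express class II molecules, whose genes are under the control of CIITA. In the kidney the resident mononuclear phagocytes are the best known source of class II molecules, while tubular epithelium can be induced to express them by interferon gamma.

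In the genome (GRCm38, GENCODE vM21) 5 of the 8 genes lie in the class II region of chromosome 17. H2-DMa is at chr17:34119541-34139101, H2-DMb1 at chr17:34153072-34160230, H2-Ab1 at chr17:34257689-34269419 and H2-Eb1 at chr17:34305867-34316674, all on the plus strand, and H2-Aa is at chr17:34282744-34287823 on the minus strand. Ciita lies at chr16:10480059-10528418 and Ctss at chr3:95526786-95556403, both on the plus strand. RefSeq promoters of GRCm38.p6 could be matched for 5 genes (H2-Aa, H2-Eb1, H2-DMa, H2-DMb1 and Ctss). Because these genes moved together in the kidneys, the 100 bases before the start of H2-Aa, H2-Eb1 and Ctss are shown 5′ to 3′ on the strand of the gene, with capitals marking the motif matches described next.
H2-Aa, chr17:34287824-34287923, minus strand: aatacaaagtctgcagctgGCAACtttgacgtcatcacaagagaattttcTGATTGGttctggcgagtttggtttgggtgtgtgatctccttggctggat
H2-Eb1, chr17:34305767-34305866, plus strand: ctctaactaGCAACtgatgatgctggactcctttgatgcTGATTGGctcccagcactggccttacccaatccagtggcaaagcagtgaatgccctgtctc
Ctss, chr3:95526686-95526785, plus strand: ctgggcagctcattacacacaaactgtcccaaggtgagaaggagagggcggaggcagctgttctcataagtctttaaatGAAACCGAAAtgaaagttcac

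The motif TGATTGG, the core of the Y box of class II promoters, which holds a CCAAT box on the opposite strand, was searched on both strands of windows reaching from 250 bases before to 50 bases after the start. It was in the windows of H2-Aa, H2-Eb1 and H2-DMb1, at 50, 61 and 63 bases before the start, and in 7.82% of all 32851 RefSeq promoter windows. In the same 3 windows a GNAAC, the first letters of an X box, began 15 to 40 bases before it, a pairing found in 0.682% of all windows. A motif like that of interferon-response elements, GAAA repeated after a gap of 2 bases, began 21 bases before the start of Ctss and was in 3.44% of all windows. No TGATTGG and no such GAAA repeat were found in either window of H2-DMa, and GNAAC was recorded only beside a TGATTGG. Such matches describe letters and not binding.

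The libraries held between 11307741 and 19324073 counts assigned to genes. Pkd2, the deleted gene, checked the labels. It was at 292 ± 31.3 CPM (library-scaled counts after TMM normalization, with SD, n = 5) in male controls against 120 ± 9.85 CPM in male mutants, and at 257 ± 48.7 against 145 ± 33.7 CPM in females. Within litters A, B and C, mutants differed from controls by -1.23, -1.46 and -1.33 log2 units in males and by -0.37, -1.03 and -0.74 in females. The nephron markers Umod, Slc12a3 and Nphs1 were present in every library, as a kidney should show, whereas all 4 hemoglobin genes of the fixed list were listed at 0. One library stood apart before any comparison was made. Female mutant 4 had the lowest total (11307741), a count for 14850 genes where every other library had 16776 to 17724, and a single count for 76 genes where the others had 708 to 859. Among the 2304 genes at 1 to 5 CPM in female controls, 24.2% were at less than 50% of the control mean in that library, against 0.255% of the 3523 genes at 50 to 200 CPM. The label of this mouse also gave the lowest KBW of any mutant (0.836% of body weight), and its Pkd2 level in CPM was the highest of any mutant. Values without this mouse are given beside the results that it changed. 

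Per kilobase of exon, Cd74 was the most abundant of the 8 genes in every group. In male controls the order was Cd74 (66.0 ± 2.95 CPM per kb), H2-Eb1 (42.2 ± 4.35), H2-Ab1 (28.3 ± 1.65), H2-Aa (19.3 ± 1.09), Ctss (9.84 ± 0.587), H2-DMb1 (7.80 ± 0.444), H2-DMa (1.98 ± 0.241) and Ciita (0.510 ± 0.0639). The ranges of neighbours in this order did not overlap among male controls, so the invariant chain and the classical chains stood above Ctss, the H2-DM chains and the transactivator. Female controls had the same order. Female mutants had Ctss (61.3 ± 43.2 CPM per kb) beside H2-Aa (58.8 ± 25.2), a difference within their spread.

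The comparison of male mutants with male controls asked how the genes differed after Pkd2 loss in males. All 8 genes were higher in male mutants, by 2.12-fold (H2-DMb1) to 3.82-fold (Ctss), and all passed an adjusted p of 0.01 in edgeR's quasi-likelihood test with the litter as a term. Of all 14010 genes tested, 5.25% were called higher. The median log2 fold change of the 8 genes was 1.28, and that of all genes was -0.0020.

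Among the classical chains, H2-Ab1 was at 76.9, 69.0, 76.7, 72.5 and 67.8 CPM in male controls 1 to 5 and at 331, 123, 248, 165 and 116 CPM in male mutants 1 to 5. Every mutant was above every control, and male mutants 2 and 5 were the lowest of the mutants. Its log2 fold change was 1.40 ± 0.24 (SE), with an adjusted p of 0.0032 (edgeR). H2-Aa, the alpha chain that pairs with H2-Ab1 as I-A, ran from 66.0 to 76.5 CPM in controls and from 112 to 287 CPM in mutants (log2 fold change 1.27 ± 0.21). H2-Eb1, the beta chain of I-E, ran from 69.6 to 90.7 CPM in controls and from 120 to 346 CPM in mutants (1.30 ± 0.21). Its alpha chain partner is inactive in the H-2b haplotype of C57BL/6 mice, and the row named H2-Ea-ps was listed at 0 in all 20 mice.

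The peptide-loading genes were less abundant and rose alike. H2-DMa was at 7.19, 5.62, 6.52, 7.87 and 6.85 CPM in male controls 1 to 5 and at 28.8, 9.39, 18.5, 14.7 and 11.4 CPM in male mutants 1 to 5. The groups did not overlap, although mutant 2 was only a little above the highest control, and the log2 fold change was 1.26 ± 0.27 (adjusted p = 0.0085, edgeR). H2-DMb1 ran from 12.2 to 13.9 CPM in controls and from 20.3 to 38.8 CPM in mutants, with a log2 fold change of 1.08 ± 0.20, the smallest of the 8. In the longest annotated transcript of H2-DMb1, 27.2% of all 50-base windows also occur in transcripts of its neighbour H2-DMb2, so reads may have been divided between the paralogs in a way the sources used here do not state.

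Cd74 was at 111, 114, 111, 115 and 103 CPM in male controls 1 to 5 and at 547, 200, 403, 293 and 180 CPM in male mutants 1 to 5. The lowest mutant was well above the highest control, and the log2 fold change was 1.50 ± 0.24 (adjusted p = 0.0023, edgeR). Ctss was at 13.4, 14.4, 12.2, 13.6 and 13.2 CPM in the same controls and at 95.3, 30.3, 60.4, 58.3 and 24.7 CPM in the mutants. The controls lay within a few CPM of each other while mutants differed among themselves several-fold, and the log2 fold change of 1.93 ± 0.29 was the largest of the 8 (adjusted p = 0.0018, edgeR). Ciita, the transactivator, was at 4.04, 4.53, 5.25, 5.60 and 4.91 CPM in controls and at 17.1, 6.65, 11.5, 13.5 and 8.02 CPM in mutants, again without overlap (1.17 ± 0.24, adjusted p = 0.0069, edgeR). 

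**Figure D1:**
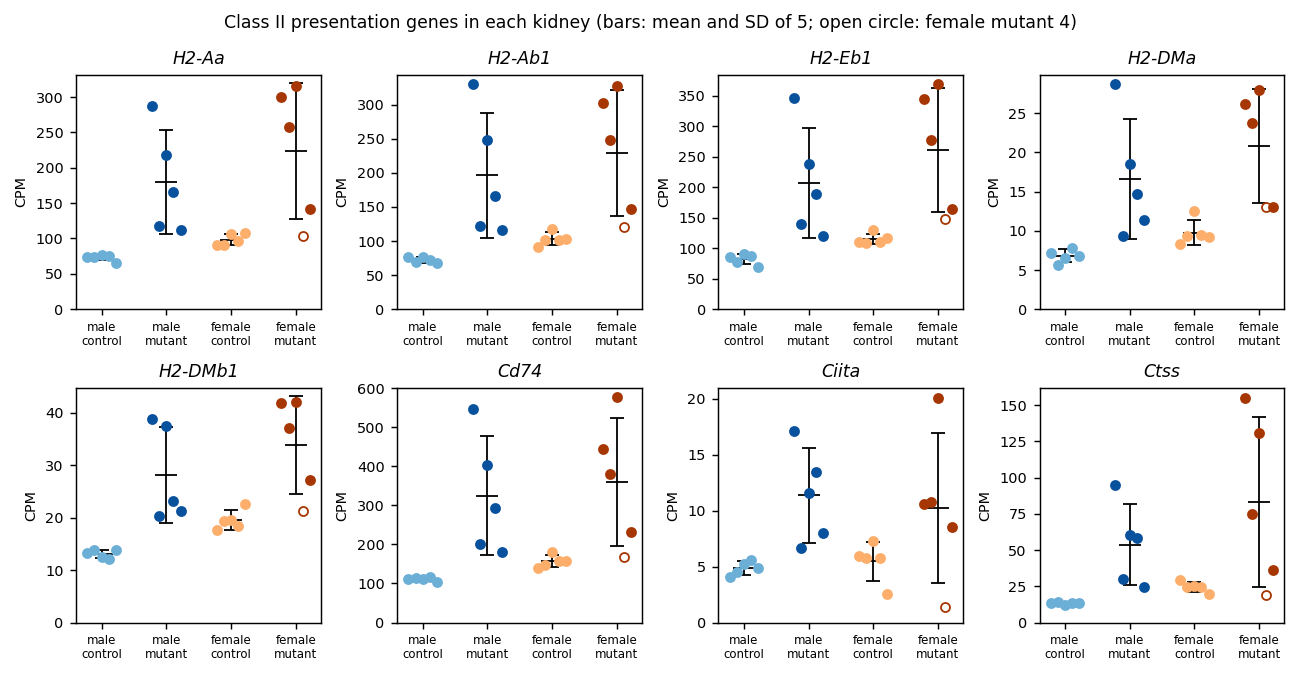
Level of each class II presentation gene (y axis, CPM after TMM scaling, starting at 0) in each kidney by group (x axis); points are mice, bars the mean and SD of 5 mice, and the open circle is female mutant 4. In males all 5 mutants are above all 5 controls for each gene, and in both sexes the mutants spread far more than the controls.

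In males the groups did not overlap for 8 of 8 genes, against 8.83% of all genes tested with mutants higher. The calls depended on single mice. Without male control 4, the single male control of litter B, 0 of the 8 genes were called. Without control 3 only 1 was called, without control 1 or 2 it was 4, and without control 5 or mutant 3, 4 or 5 it was 6. With litter as a term, litter B no longer informed the male comparison of any gene without control 4. The share of all genes called in these refits is not given here, so a general loss of calls cannot be told apart. H2-DMa and Ciita lost their call in 8 of the 10 fits that left out a mouse, with adjusted p-values up to 0.0346 and 0.0352 (edgeR). Every log2 fold change stayed above 0, but without male mutant 1 that of H2-DMa fell to 0.77, that of Cd74 to 1.07 and that of Ctss to 1.40. Within each litter the 8 genes were higher in male mutants, with median differences of 1.36 (litter A), 1.31 (litter B) and 0.77 (litter C) on the log2 CPM scale.

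In females the same comparison gave fold changes of similar size but turned on female mutant 4. With all 5 mutants, log2 fold changes ran from 0.83 (H2-DMb1) to 1.67 (Ctss), and 0 of 8 genes were called at an adjusted p of 0.01 (edgeR), where 0.457% of 14439 genes were called higher. The adjusted p-values of 7 genes lay between 0.0228 and 0.0429, and that of Ciita was 0.280. DESeq2's Wald test on the same mice called 6 of the 8, and 6.43% of all genes in either direction. Without female mutant 4, edgeR called all 8 genes higher, where 4.68% of 14595 genes were called higher, with log2 fold changes from 0.96 ± 0.15 (H2-DMb1) to 1.93 ± 0.24 (Ctss).

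H2-Ab1 was at 91.8, 101, 118, 102 and 104 CPM in female controls 1 to 5 and at 302, 248, 327, 121 and 146 CPM in female mutants 1 to 5. All mutants exceeded all controls, and mutants 4 and 5 lay nearest to them. Cd74 was at 139, 148, 181, 157 and 158 CPM in female controls and at 445, 380, 577, 168 and 231 CPM in female mutants, so that only mutant 4 fell inside the range of the controls. Ctss was at 29.5, 24.5, 25.3, 24.2 and 19.8 CPM in controls and at 155, 75.2, 131, 19.2 and 36.0 CPM in mutants. Mutant 4 was below every control for this gene, while the other mutants were above every control.

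Ciita varied widely among females, with and without mutant 4. It was at 5.95, 5.78, 7.25, 5.72 and 2.57 CPM in female controls 1 to 5 and at 10.5, 10.7, 20.0, 1.37 and 8.51 CPM in female mutants 1 to 5. The 1.37 CPM of mutant 4 was the lowest of all 20 libraries, a count of 16. Without it the log2 fold change of Ciita went from 1.02 ± 0.49 to 1.32 ± 0.22 (adjusted p = 0.0049, edgeR).

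H2-DMa was at 8.34, 9.33, 12.6, 9.48 and 9.16 CPM in female controls and at 26.2, 23.8, 28.0, 13.0 and 13.0 CPM in female mutants. The lowest mutants were just above control 3. Groups did not overlap for 3 of 8 genes in females (H2-Ab1, H2-Eb1 and H2-DMa), against 3.60% of all genes with mutants higher, and for 8 of 8 without mutant 4, against 6.95%. Within litters A, B and C the median difference of the 8 genes was 1.66, 1.02 and 0.50 on the log2 CPM scale, and each gene was higher in the mutants of each litter.

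**Figure D2:**
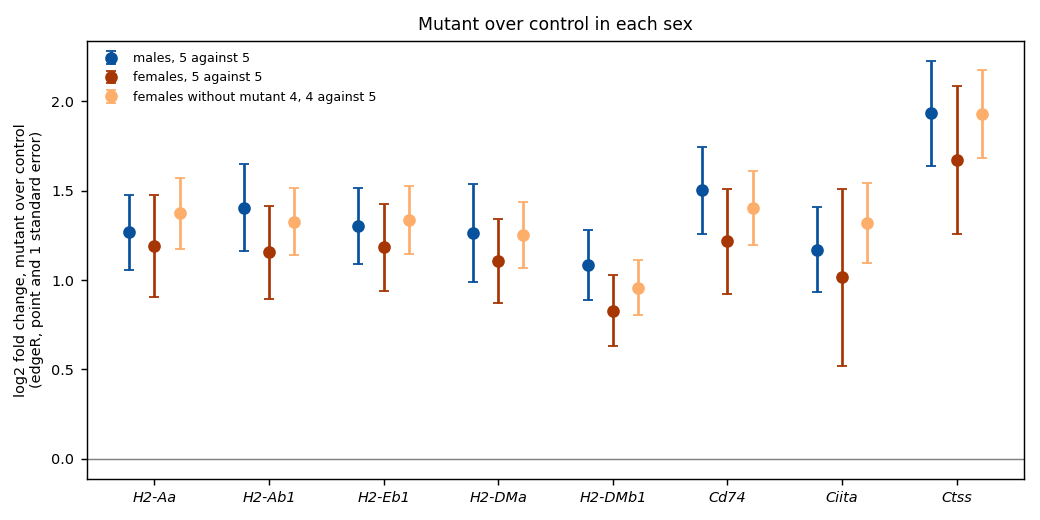
Log2 fold change of mutants over controls (y axis) for each of the 8 genes (x axis) from edgeR with 1 standard error, in males, in females and in females without mutant 4. Every estimate is above 0, from 0.83 to 1.93, and the standard errors of females shrink when mutant 4 is left out.

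With both sexes in one fit that kept each litter of each sex apart, 8 of 8 genes were called higher in mutants, where 10.0% of 14191 genes were called higher. Their log2 fold changes ran from 0.94 ± 0.15 (H2-DMb1) to 1.78 ± 0.27 (Ctss). Ciita passed narrowly (1.08 ± 0.29, adjusted p = 0.0097, edgeR), and leaving out any of 18 single mice lifted it above the threshold, up to an adjusted p of 0.0372. The other 7 genes stayed called whichever mouse was left out. Without female mutant 4 all 8 were called, where 12.5% of 14274 genes were called higher. Across the sexes the groups overlapped for all 8 genes, where 0.979% of all genes did not overlap and were higher in mutants. Without female mutant 4 they overlapped for every gene but H2-Aa, against 1.54%.

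Whether the effect of genotype differed between the sexes was tested as an interaction. The male effect exceeded the female effect by 0.11 ± 0.38 (H2-Aa) to 0.32 ± 0.41 (Cd74) on the log2 scale, and 0 of 8 genes, as of all 14820 genes, were called (0% called; edgeR). At an unadjusted p of 0.05, 618 of all genes passed and none of the 8. Each estimate was smaller than its standard error (0.29 to 0.59), and without male mutant 1 all 8 estimates fell below 0, so these mice do not show whether the effect differed between the sexes.

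Levels differed between the sexes in control kidneys. Male controls were lower than female controls for 6 of 8 genes called by edgeR, where 9.02% of 14123 genes were called lower in males. The largest difference was in Ctss, at 12.2 to 14.4 CPM in male controls and 19.8 to 29.5 CPM in female controls, a log2 difference of -0.87 ± 0.11 (adjusted p = 8.1e-05, edgeR). H2-DMb1 (-0.54 ± 0.09), H2-Eb1 (-0.45 ± 0.09), H2-Ab1 (-0.44 ± 0.08), Cd74 (-0.42 ± 0.08) and H2-Aa (-0.38 ± 0.08) were also called. H2-DMa was at -0.36 ± 0.14 (adjusted p = 0.070) and Ciita at 0.03 ± 0.21 (adjusted p = 0.93), both not called. The sexes did not overlap for 7 of 8 genes, all but Ciita, against 14.2% of all genes with males lower.
The calls changed with single mice left out. Without male control 4 only Ctss was called, and without male control 5 or female control 5, the single controls of their sex in litter C, only Ctss and H2-DMb1 were. Each of these omissions left a litter with controls of a single sex, which then no longer informed the comparison for any gene. In a fit of all 20 mice, which shares the wider spread of the mutants, 0 of the 8 were called. The share of all genes called in these refits is not given here, so a general loss of calls cannot be told apart. The 5 pan-leukocyte markers had log2 differences of -0.20 (Ptprc, adjusted p = 0.40) to -0.52 (Laptm5, adjusted p = 0.0196, edgeR) between the same controls, with a median of -0.33, and none was called. Genes called lower in male controls were also 8 of 10 of the MHC class I presentation list, 5 of 5 endothelial markers (median log2 difference -0.45, beside -0.43 for the 8 genes), 3 of 10 macrophage markers and 3 of 6 kidney segment markers, of which 1 other was called higher. The dendritic cell list went both ways, with Zbtb46 and Xcr1 lower and Clec10a higher (1.01) in males, as did the monocyte list, with Plac8 lower and Ccr2 higher (0.54).

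Male and female mutants overlapped for every gene, where 5.06% of all genes did not overlap and were lower in males. In the direct comparison 0 of 8 genes were called (edgeR, litter as a term), where 1.84% of 14416 genes were called lower in males. At an unadjusted p of 0.05, 4399 of all genes passed and 0 of the 8 did. Log2 differences of males from females ran from -0.67 ± 0.44 (Ctss) to 0.13 ± 0.51 (Ciita). Leaving out female mutant 4 made all 8 differences negative, from -0.90 ± 0.30 (Ctss) to -0.11 ± 0.29 (Ciita), again with 0 called, where 2.72% of 14576 genes were called lower. Of these, Ctss, H2-Aa and H2-Eb1 passed an unadjusted p of 0.05, with adjusted p-values of 0.0523, 0.119 and 0.115 (edgeR), and Cd74 went from -0.20 to -0.37. With all mice, 4399 of 14416 genes passed this unadjusted threshold, and the count without female mutant 4 is not given here. These mutants differed in the size of their kidneys, however, the males having a KBW of 2.15, 1.22, 1.79, 1.54 and 1.71% and the females of 1.38, 1.24, 1.46, 0.836 and 1.00%.

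Among the 10 mutants all 8 genes had a positive slope on KBW with sex and litter as terms of the fit, and 1 was called. The slopes ran from 1.21 ± 0.24 (H2-DMb1) to 2.40 ± 0.55 (Ctss) log2 units per percentage point of KBW, the median being 1.71 against -0.049 for all genes. H2-DMa was called (1.70 ± 0.20, adjusted p = 0.0074, edgeR), 1 of 8, where 0.0694% of 14416 genes (10 genes) were called. Of the others, the adjusted p-values ran from 0.0111 (H2-Ab1) to 0.0446 (Ctss) for 6 genes and stood at 0.133 for Ciita. By the size of p, H2-DMa ranked 7, H2-Ab1 18 and H2-Eb1 27 among all genes. Without female mutant 4, 0 of 8 genes were called, 0.0137% of all genes were, and H2-DMa kept a slope of 1.63 ± 0.20 (adjusted p = 0.0184, edgeR). None was called when any other mutant was left out, the slope of Ciita running from 1.33 (without female mutant 4) to 3.35 (without male mutant 2). With sex as the only covariate the slopes were 1.28 to 2.68 and none was called, and with no covariate they fell to between 0.44 (H2-DMb1) and 1.43 (Ciita), with adjusted p-values of 0.299 to 0.603 (edgeR). DESeq2 called the slopes of 6 genes, and of 4.32% of all genes in either direction.

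Mice of the same sex and litter can be set side by side. In male litter A, mutant 1 had a KBW of 2.15% and 287 CPM of H2-Aa, and mutant 2 had a KBW of 1.22% and 117 CPM. In female litter B the KBW of mutants 3, 2 and 4 was 1.46, 1.24 and 0.836%, and H2-Aa was at 315, 258 and 103 CPM. All 8 genes had the order of KBW in both of these litters, where 50.4% and 20.4% of 14416 genes had it, and 7 of 8 in male litter B (51.2% of all genes), where Ciita was 11.5 CPM in mutant 3 and 13.5 CPM in mutant 4. Over all 5 mutants of a sex, litter ignored, 0 of 8 genes had the order of KBW in males and 6 of 8 in females, beside 0.839% and 3.68% of all genes. The 8 genes varied together within groups, so these counts are not 8 separate observations. Litter C had a single mutant of each sex and gives no order. Male mutant 5 of that litter had a KBW of 1.71% with only 112 CPM of H2-Aa, the lowest of the male mutants.

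Without any covariate the relation was weak. Pearson's r with KBW over the 10 mutants ran from 0.39 to 0.68 and Spearman's rho from 0.36 to 0.66. Ciita had the highest (r = 0.68, permutation p = 0.0305, adjusted p = 0.274 over 14416 genes; rho = 0.66, permutation p = 0.0431), and it alone passed an unadjusted p of 0.05. Without female mutant 4 and male mutant 1, the mice farthest from the median KBW, r fell to between 0.0083 and 0.30, so the pooled relation rests on those mice. Of all genes, 17.5% had an r at least as high as the median r of the 8 genes (0.44). No r was computed within a sex, each with 5 mutants.

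**Figure D3:**
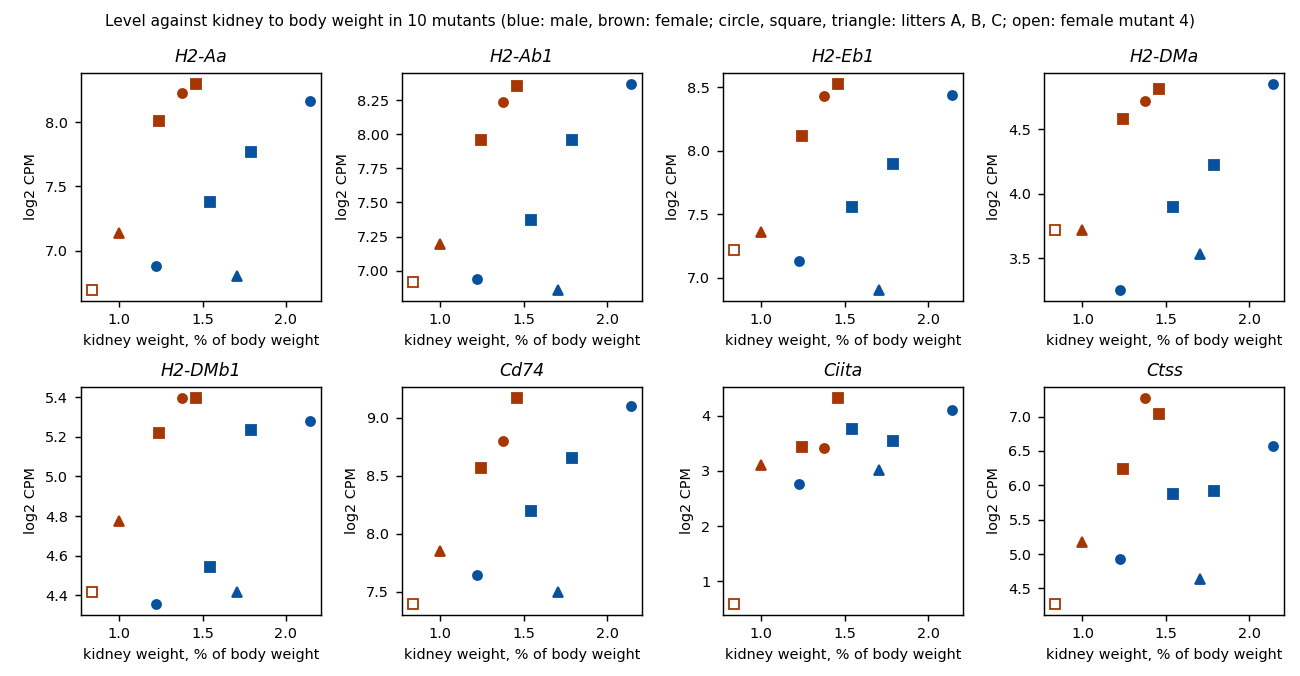
Level of each gene (y axis, log2 CPM) against kidney weight as a percentage of body weight (x axis) in the 10 mutants; blue is male, brown is female, the shapes are litters A, B and C, and the open symbol is female mutant 4. Female mutants 1 to 3, at a KBW of 1.24 to 1.46%, lie above male mutant 2, at 1.22%, for each gene.

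The sexes separated when KBW was added to the fit of male against female mutants, a comparison chosen after the values had been seen. At equal KBW, 7 of 8 genes were lower in males, where 4.27% of 14416 genes were called lower. Log2 differences ran from -0.88 ± 0.17 (H2-DMb1) to -1.72 ± 0.35 (Ctss) for the called genes, with adjusted p-values from 0.00032 to 0.0064 (edgeR), and Ciita was at -0.77 ± 0.47 (adjusted p = 0.27). Without female mutant 4, 7 of 8 genes were called (5.50% of all genes were), and without the litter term it was 7 as well. Male mutant 2, at a KBW of 1.22%, is the male whose KBW lies inside the range of the females. It had 117 CPM of H2-Aa and 200 CPM of Cd74, where female mutant 2, at 1.24%, had 258 and 380 CPM. Without male mutant 2, 0 of 8 genes were called although the estimates grew (H2-Aa at -1.42, adjusted p = 0.0254, edgeR). Without female mutant 1 or female mutant 3 the count was 3 and 4, and without other mice 5 to 7. Of these refits, only the one without female mutant 4 has its share of all genes given here. Ctss and H2-DMb1 each lost their call in 7 of the 10 fits that left out a mutant, with adjusted p-values up to 0.0761 and 0.0467 (edgeR), and Cd74 in 4. The fit assumes one slope for both sexes, over ranges of KBW that overlap little.

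Ptprc, which encodes the leukocyte antigen CD45, was called higher in the fit of both sexes (log2 fold change 0.85 ± 0.16, adjusted p = 0.00090, edgeR) and missed the threshold within each sex (males 0.76 ± 0.18 with an adjusted p of 0.0137, females 0.95 ± 0.25 with one of 0.0567). It was at 13.7, 14.9, 14.0, 17.3 and 15.4 CPM in male controls 1 to 5 and at 37.3, 18.9, 28.4, 32.0 and 17.5 CPM in male mutants 1 to 5. In whole tissue, more cells of a type and more RNA per cell cannot be told apart. To see whether the 8 genes rose further than this common leukocyte gene, their log2 CPM was taken relative to that of Ptprc in each mouse. In males Ctss rose by 1.06 and Cd74 by 0.66 relative to Ptprc, all 5 mutants lying above all 5 controls (two-sided exact permutation test, p = 0.00794 for both, the smallest this design can give; adjusted p = 0.0230 over 14009 genes). Ciita rose by 0.36 (p = 0.0159), and H2-Aa, H2-Ab1 and H2-Eb1 by 0.44 to 0.55 (exact permutation p = 0.0238 each), and the adjusted p of these 4 genes was 0.0303 to 0.0375. H2-DMa was at 0.39 (exact permutation p = 0.0556) and H2-DMb1 at 0.27 (p = 0.143). These 6 genes of 8 compare with 2.47% of all genes higher at an unadjusted p of 0.05, the median difference of all genes from Ptprc being -0.76. Ptprc itself was higher in mutants, so most genes were lower relative to it. The adjusted p-values and this share therefore reflect the choice of reference and say little about these genes against all others. The permutation took no account of litter, and with mice permuted only within litters (60 splits) Ctss, Cd74 and Ciita passed an unadjusted p of 0.05 (exact p of 0.0167, 0.0167 and 0.0333, 0.0167 being the smallest that these splits give). The result also turned on the reference gene, since Ptprc had the smallest fold change of the 5 pan-leukocyte markers in males. The other 4 were at 1.18 (Coro1a), 1.38 (Cd52), 1.39 (Laptm5) and 1.42 (Cd53), and the median of the list was 1.38 in each sex, above the 1.28 and 1.17 of the 8 class II genes. Relative to the mean log2 CPM of the 5 markers, a reference chosen after the values had been seen, only Ctss (0.66, exact permutation p = 0.00794) and Cd74 (0.25, exact permutation p = 0.0317) were higher at an unadjusted p of 0.05 in male mutants, and the other 6 genes lay between -0.13 and 0.14. In female mutants no gene passed, and 7 of 8 were below 0. 

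In females the differences from Ptprc were smaller and none of the 8 passed an unadjusted p of 0.05, where 1.09% of 14438 genes were higher. The median difference of all genes from Ptprc was -0.88 in females, so this share too reflects the reference. The differences of the 8 genes ran from -0.26 for Ciita to 0.55 for Ctss, with exact permutation p-values of 0.143 to 0.802. The value of Ciita rested on female mutant 4, whose log2 ratio was -3.67 where the other mutants had -2.09 to -1.43. Leaving this mouse out turned Ciita to 0.14 and brought Ctss to 0.79 (exact permutation p = 0.0397), the one gene that then passed an unadjusted p of 0.05. Female control 5 had the least Ptprc of any mouse (11.5 CPM) and so the highest ratio of its group for H2-Aa, H2-Ab1, H2-Eb1, H2-DMa, H2-DMb1, Cd74 and Ctss. Without it 3 of 8 genes passed an unadjusted p of 0.05, and the share of all genes without either mouse is not given here. The balance among the genes themselves was tested with 4 ratios in each sex (H2-Aa to H2-Ab1, H2-Eb1 to H2-Ab1, H2-DMb1 to H2-DMa and Ciita to H2-Ab1). None of the 8 tests passed (exact permutation p of 0.0952 and above, adjusted p of 0.508 and above), the differences running from -0.47 to 0.04 log2 units. The -0.47 was that of Ciita to H2-Ab1 in females, which was -0.079 when mutant 4 was left out.

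**Figure D4:**
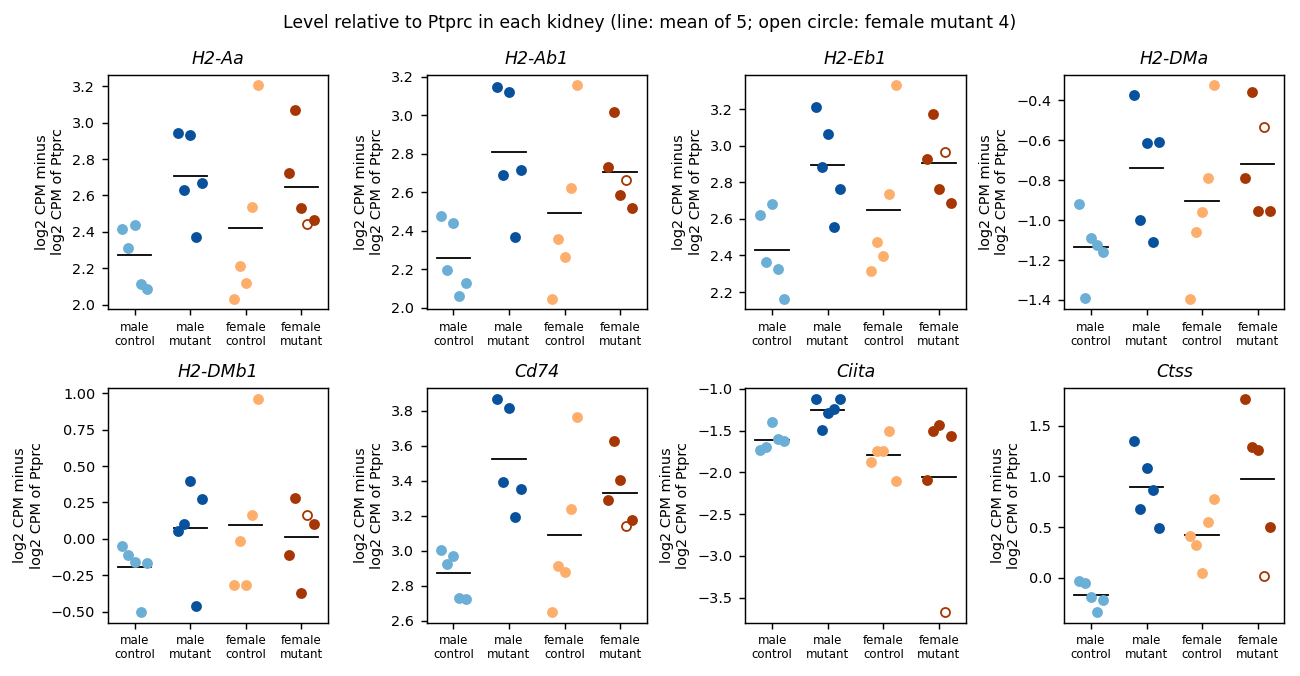
Log2 CPM of each gene minus log2 CPM of Ptprc (y axis) in each kidney by group (x axis); points are mice, lines the mean of 5 mice and the open circle female mutant 4. For Cd74 and Ctss all male mutants lie above all male controls, and in females control 5 is the highest control for each gene but Ciita.

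The markers of cells that could carry class II were counted in the same fits. Of 10 macrophage markers, 8 were called higher in male mutants (median log2 fold change 1.66), 0 in females and 8 in females without mutant 4. Their summed level was 174, 187, 176, 178 and 186 CPM in male controls and 472, 224, 321, 328 and 239 CPM in male mutants. In females it was 256, 215, 216, 208 and 211 CPM in controls and 547, 387, 636, 211 and 279 CPM in mutants. Male mutants 2 and 5 and female mutants 4 and 5 were the lowest mutants on this sum, as they were for H2-Aa, H2-Ab1, H2-Eb1 and Cd74. Csf1r and Mertk held the most counts of the list in every male control. Their log2 fold changes in males (0.35 and -0.30) were below the list median, so the sum rose less than most of its genes. The most abundant gene of the list was Csf1r (62.0 CPM in male controls, 79.3 CPM in male mutants), the receptor that macrophages need to survive, and no gene of the list was at 0 in every mouse. Examples were Fcgr1, an Fc receptor (log2 fold change 2.24 in males and 1.93 in females), and C1qc, a complement subunit made by resident macrophages (1.72 and 1.74). Mertk, a receptor for the uptake of dead cells, was the single one with a negative fold change in each comparison (-0.30 in males and -0.36 in females) and was not called. Their part in the rise of the class II genes was not tested.

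Of 10 dendritic cell markers, 7 could be tested in males and only Itgax (CD11c) was called (1.79, adjusted p = 0.00078, edgeR). In the fit of both sexes Itgax, Clec10a and Cd209a were called. Itgax, the most abundant of them, was at 1.81 to 3.33 CPM in male controls and 5.12 to 13.8 CPM in male mutants. The list summed to 13.2 to 18.3 CPM in male controls, 18.6 to 39.0 in male mutants, 20.1 to 25.3 in female controls and 18.8 to 53.3 in female mutants. Of the monocyte markers Ccr2, the chemokine receptor for entry into tissue, and Plac8 were called in males (1.32 and 1.28) and none in females. Of 5 pan-leukocyte markers 4 were called in males, 0 in females, and 5 in females without mutant 4 and in the fit of both sexes, Cd52 and Coro1a having the smallest p-values. In females 2 dendritic cell markers and 2 monocyte markers were called without mutant 4. The parts of these cells were not tested.

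Lymphocyte markers were scarce. Of 7 B cell markers 2 could be tested in males (Cd79a and Cd79b), with 0 called in either sex or together, and the sum of the list stayed between 2.14 and 8.57 CPM in all 20 mice. Cd79a was called without female mutant 4, in females (1.32, adjusted p = 0.0055) and in the fit of both sexes (0.75, adjusted p = 0.0081, edgeR). Of 7 T cell markers 5 could be tested, with 0 called in either sex and Lck, the kinase of the T cell receptor, called in the fit of both (0.87, adjusted p = 0.0090, edgeR). Leaving out female mutant 4 gave 1 called T cell marker in females and 2 in the fit of both. Cd4 and Lag3, the receptors of T cells that bind class II, were at log2 fold changes of 0.87 and 0.40 in males and 1.14 and 0.89 in females, and neither was called. Cd4 was called when female mutant 4 was left out, in females (1.45, adjusted p = 0.0079) and in the fit of both sexes (1.18, adjusted p = 0.00024, edgeR), and Lag3 in neither. Neutrophil markers had 3 of 5 genes tested and 0 called, and without female mutant 4 there was 1 call in the fit of both sexes.

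Among the other class II chains, H2-DMb2 was called in both sexes, the neighbour of H2-DMb1 with the same partner. It was at 0.440 to 0.811 CPM in male controls and at 10.7, 2.33, 7.54, 3.90 and 2.73 CPM in male mutants 1 to 5. In female controls it was at 0.595 to 1.01 CPM and in female mutants at 4.67, 5.10, 5.64, 1.88 and 3.46 CPM. Its log2 fold changes of 2.93 (males, adjusted p = 0.0022) and 2.62 (females, adjusted p = 0.0065, edgeR) were larger than those of the 8 genes, with female mutant 4 above every control too. H2-Ob, a chain of the H2-O inhibitor of H2-DM that B cells express, was at -0.09 in males and 0.35 in females and was not called. H2-Oa and H2-Eb2 were too low to test.

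Of 17 upstream regulators of class II, 16 were tested, 2 were called higher in males, where 5.25% of all genes were, and 6 higher and 1 lower in the fit of both sexes, where 10.0% of all genes were higher. In males these were Spi1, which encodes the myeloid factor PU.1 (log2 fold change 1.71), and Ifngr1, a chain of the interferon gamma receptor (0.63). The lower gene in the fit of both sexes was Nfyc, a subunit of the factor that binds the Y box, which was not called in males (-0.35, adjusted p = 0.0109, edgeR). In females 0 were called with all mice and Spi1 (1.79) without mutant 4. Interferon gamma itself (Ifng) was at most 0.406 CPM in any mouse. Of 10 genes of endosomal proteolysis, Ctsk and Ifi30 were called in males (1.05 and 0.42) and in the fit of both sexes, and none in females, where Ctsk was called without mutant 4 (1.18). Ctsk encodes the protease cathepsin K, and Ifi30 the reductase that opens disulfide bonds of antigens. Ctsb and Ctsd, cathepsins of most cells, were at 0.26 and 0.34 in males and were not called.

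Of 6 genes of co-stimulation and class II turnover 5 were tested, with 0 called in either sex and Cd86 (0.98) and Cd40 (0.75) called in the fit of both. When female mutant 4 was left out, Cd86 was called in females, and Cd83 joined them in the fit of both. Of 10 genes of MHC class I presentation 4 were called in males, 0 in females (2 without mutant 4) and 7 in the fit of both (10 without it), with median log2 fold changes of 0.76 and 0.62 in males and females beside 1.28 and 1.17 for the 8 class II genes. B2m, the light chain of class I, was at 0.77 in males and 0.67 in females, and Psmb8, an immunoproteasome subunit, at 0.93 and 0.89. Of 6 kidney segment markers 2 were called lower in males, 1 in females and 3 in both together, Slc12a3, the thiazide-sensitive transporter of the distal convoluted tubule, in each (-1.04 in males and -1.18 in females). Of 5 endothelial markers Pecam1 was called in males (0.55), none in females and none in the fit of both, where Pecam1 was called without female mutant 4 (0.37). Only 2 of the 5 had a positive fold change in males, in females and in both, with median log2 fold changes of -0.013, -0.20 and -0.12. The part of these cells in the values of the class II genes was not tested.

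**Figure D5:**
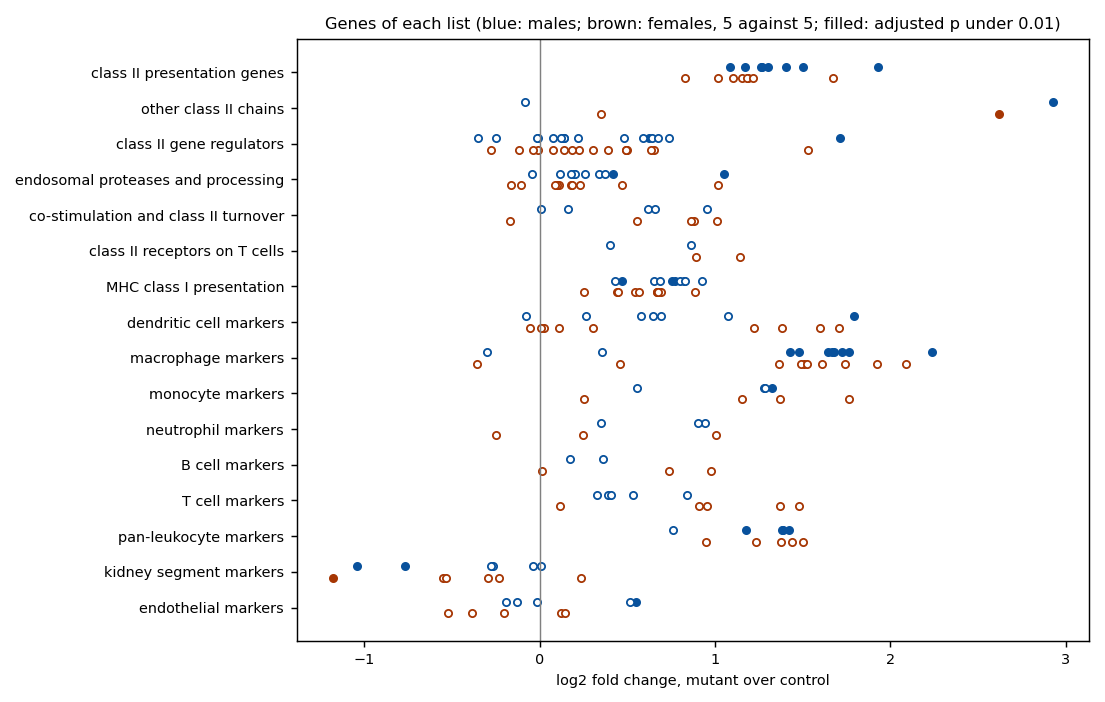
Log2 fold change of mutants over controls (x axis) for each tested gene of each list (y axis); blue is males, brown is females with all 5 mutants, and filled points passed an adjusted p of 0.01. All 8 class II genes, 9 of 10 macrophage markers and 5 of 5 pan-leukocyte markers lie to the right of 0 in both sexes, and the filled points of females are H2-DMb2 and Slc12a3.

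The 8 genes varied together across mice. Pearson's r between pairs of them over the 20 mice ran from 0.63 to 0.99 with a median of 0.97 (28 pairs), and after removal of the group means the median was 0.92. The genes nearest to their mean, out of 13773 compared over the 20 mice, were Tubb5 (r = 0.989), Cd53, Anxa2, C1qa, C1qc, Fblim1, Tgfbi, C1qb, Sparc and Tpm4, all with r above 0.978 and with r of 0.940 to 0.978 within groups. They hold a tubulin, a leukocyte tetraspanin, an annexin, the 3 chains of C1q and genes of matrix and cytoskeleton. By Spearman's rho 5 of these 10 genes were again among the nearest 10, and by r without female mutant 4 it was 7. In all, 103 genes had an r above 0.95, and these are descriptions over mice that share litter, library preparation and group.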

How the data were processed

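The authors trimmed reads with fastp 0.23.2, aligned them to mm10 with STAR 2.7.10b and deposited one table of raw counts per gene for 20 mice. The counting tool, its annotation and its use of strand are not given in the sources used here. The 8 genes, the lists and the tests were chosen with earlier results of these data known.

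Genes were kept with filterByExpr, scaled by TMM and tested with edgeR 4.0.16 (R 4.3.3, quasi-likelihood), with p-values adjusted by Benjamini-Hochberg over all genes tested and called at an adjusted p of 0.01, the threshold of the study. Litter was a term within a sex and within a genotype, sex and litter combined in the fits of both sexes, and sex plus litter in the slope on KBW, which is the weight of a kidney as a percentage of body weight. Standard errors were taken from the F statistic. Log2 CPM used a prior count of 2. Ratios were tested by exact permutation and correlations by 100000 permutations. Levels per length used the union of GENCODE vM21 exons. DESeq2 1.42.0 was an alternative. Scripts were tested on simulated counts. All mice came from separate animals, and the rule for genes named from the lists took those called in both sexes and the 2 of each list with the smallest p in the fit of both, and the others named were chosen after their values were seen.

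Per-gene counts were as deposited, with 11307741 to 19324073 per mouse. Genes listed beside the 8 were H2-DMb2, H2-Oa, H2-Ob and H2-Eb2, regulators, endosomal, co-stimulatory, class I, T cell receptor, leukocyte, kidney segment, endothelial and erythroid genes. H2-Ea, Ly6g, Ighm and Trac had no row of that name, Marchf1 and Marchf8 were listed only under their older names March1 and March8, and the 4 erythroid genes were listed at 0. One further gene of the kidney segment list is not reported here.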

Additional observations from a re-analysis of the deposited data

Results flagged for a closer look

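In 52 groups of 5 mice (each of the 8 genes, Pkd2, Ptprc, KBW and 2 measures of the libraries in each of the 4 groups), 5 values, from 3 mice, stood far from the rest of their group, where chance alone is expected to give about 1 group in 20. Among male controls, mouse 5 had the lowest H2-Aa (66.0 CPM, the next being 73.7 CPM) and also the highest KBW of the controls (0.896%, the next being 0.678%). Among female controls, mouse 3 had the highest H2-DMa (12.6 CPM, the next being 9.48 CPM). Among female mutants, mouse 4 had the fewest genes with a count (14850, the next being 17294) and the fewest genes with exactly 1 count (76, the next being 708).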

How the results depend on the processing

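Single genes kept their direction and side of the threshold in 301 of 344 refits under other settings and in 679 of 800 with a mouse left out. With DESeq2's Wald test 6 genes were called in females and 6 on KBW, and in a fit of all 20 mice 7 in females and 0 between the sexes in controls. On KBW 5 were called with no filter on low counts, and 0 with sex as the sole covariate or with none. Apart from the DESeq2 fits, the share of all genes called under these settings is not given here. Adding KBW, chosen after seeing the data, brought 7 calls between the sexes in mutants. With single mice left out, counts ran from 0 to 8 in males and in females, from 1 to 6 between control sexes, at 0 on KBW, from 0 to 7 between mutant sexes at equal KBW, from 0 to 3 relative to Ptprc in females and from 0 to 1 for the chain ratios. Among these refits, a share of all genes called is given above only for fits without female mutant 4. The interaction ran from -0.30 to 0.32 (H2-Aa), -0.18 to 0.48 (H2-Ab1), -0.28 to 0.35 (H2-Eb1), -0.36 to 0.39 (H2-DMa), -0.0045 to 0.44 (H2-DMb1), -0.16 to 0.60 (Cd74), -0.25 to 0.63 (Ciita) and -0.28 to 0.68 (Ctss). Ciita, near 0 between control sexes, was -0.14 without the litter term, -0.065 in the fit of 20 mice and -0.23 to 0.29 with single mice left out, and between mutant sexes -0.77 with KBW and -0.11 to 0.48 with single mice left out. Ciita lost its call in males in the fit of 20 mice (adjusted p = 0.0568, edgeR) and in both sexes with DESeq2 size factors (0.0102) or at least 10 counts in every mouse (0.0104). The causes were not tested. Relative to Ptprc in males, 3 genes passed with permutation within litters and 2 against the mean of 5 pan-leukocyte markers, both chosen after seeing the data. By Spearman's rho 5 of the 10 nearest genes were kept. No paired analysis was possible because the labels give no replicate numbers that would match single mutants to single controls. The litter, which ties mutants to controls, was a term of the fits instead, and differences within each litter are given above. Ciita had the fewest counts of the 8 genes, 16 in female mutant 4, so its counting error was the largest.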
